A study of Mus musculus with 18 samples.

Results

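Mbnl1, Mbnl2 and Mbnl3 are the 3 muscleblind genes of the mouse. They were found by gene symbol among the 46725 genes of the deposited tables, and their 93 exon bins are part of 391858 bins in all. An exon bin is a stretch of annotated exon that no transcript boundary cuts, and its value is the number of reads counted over it. Mbnl1 (ENSMUSG00000027763.13, GRCm38 chromosome 3, 60472830 to 60629750, plus strand) had 60 bins, Mbnl2 (ENSMUSG00000022139.16, chromosome 14, 120275669 to 120431697, plus strand) had 9, and Mbnl3 (ENSMUSG00000036109.17, chromosome X, 51117269 to 51206532, minus strand) had 24. The study sequenced polyA RNA from the gastrocnemius and the quadriceps of the same 9 mice, all FVB and 20 weeks old, in 18 libraries. WT mice carried no transgene. HSA-LR mice carry a human skeletal actin transgene with an expanded CTG repeat, which the actin promoter restricts to skeletal muscle, and are used as a model of myotonic dystrophy (DM1). WT and HSA-LR mice were labelled untreated, although the injection protocol given for all samples names saline as the alternative to the drug. Treated mice were HSA-LR mice injected intravenously with Pip6a-PMO, an antisense morpholino (PMO) against the CUG repeat, linked to the cell-penetrating peptide Pip6a. The study used single and repeated doses, and which of these the sequenced mice received was not given in the sources used here. Each group had 3 mice, and every value below is from 3 libraries per group and muscle.

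Muscleblind (MBNL) proteins are zinc finger proteins that bind short GC-containing motifs in pre-mRNA and shift splicing of many muscle transcripts from the fetal to the adult form. Expanded CUG repeats hold MBNL proteins in nuclear foci, and the fetal forms then persist in adult muscle. MBNL1 is the main form in adult skeletal muscle, MBNL2 is best known from brain and can stand in for MBNL1 in part, and MBNL3 is known from placenta and from muscle precursor cells. MBNL proteins also act on their own transcripts: exon 5 of Mbnl1, counted from the exon with the start codon, is a fetal exon whose protein segment favours the nucleus. The comparisons below ask whether the RNA of these genes changed in amount or in exon usage in HSA-LR muscle, and where it stood after treatment.

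The findings turn on 2 exon pairs, which are shown here to compare the paralogs. Exon 5 has 54 bases (18 codons) in both genes and lies at chr3:60614683-60614736 in Mbnl1 and at chr14:120395712-120395765 in Mbnl2, both on the plus strand of GRCm38. Exon 8 has 95 bases, which leaves 2 bases beyond whole codons, so its presence changes the reading frame of what follows. It lies at chr3:60622146-60622240 in Mbnl1 and at chr14:120404638-120404732 in Mbnl2. Capitals mark the bases at which the paralogs differ, and the sequences, written 5′ to 3′, are those of GENCODE M21 transcripts.
Mbnl1 exon 5: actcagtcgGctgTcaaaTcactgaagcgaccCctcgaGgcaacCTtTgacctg
Mbnl2 exon 5: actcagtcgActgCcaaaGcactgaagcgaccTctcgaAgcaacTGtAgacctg
Mbnl1 exon 8: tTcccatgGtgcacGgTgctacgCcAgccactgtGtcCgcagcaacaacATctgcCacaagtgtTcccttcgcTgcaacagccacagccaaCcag
Mbnl2 exon 8: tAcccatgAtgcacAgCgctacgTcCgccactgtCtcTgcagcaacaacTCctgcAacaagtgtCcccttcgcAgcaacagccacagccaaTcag
The paralogs had the same base at 46 of 54 positions of exon 5 (85.2%) and at 81 of 95 positions of exon 8 (85.3%).

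The libraries held between 98916844 and 143135976 counts in all, summed over bins. One library stood apart: the gastrocnemius of treated mouse 3 had fewer counts at the 5′ than at the 3′ ends of transcripts, with a log2 ratio of coverage of -0.36, while the other 17 lay between -0.04 and 0.09. WT mouse 2 was labelled female, yet its summed level of 4 Y-linked genes in CPM (counts scaled to a common library total) was 154 and 181 in the 2 muscles, and WT mouse 3, labelled male, had 1.15 and 1.43. The sex labels of these 2 mice therefore went against the data. WT mouse 1 and all HSA-LR and treated mice were labelled male and had between 119 and 187 CPM. Sex was thus not balanced between WT and the other groups. The results within a muscle were also computed without each mouse. Markers of fast skeletal muscle were abundant everywhere, with Acta1 between 32658 and 40190 CPM. In whole muscle, fewer cells of a type and less RNA per cell cannot be told apart.

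Mbnl1 and Mbnl2 RNA did not differ detectably in amount between the groups, and Mbnl3 was close to undetected. Summed over its bins, Mbnl1 had 325.5, 321.1 and 286.3 CPM in the gastrocnemius of the 3 WT mice, 299.1, 316.9 and 343.3 in HSA-LR mice and 286.4, 354.2 and 254.6 in treated mice. In the quadriceps it had 310.2, 389.4 and 294.2 CPM in WT mice, 316.5, 334.2 and 346.2 in HSA-LR mice and 315.2, 350.2 and 344.0 in treated mice. All 3 groups overlapped in both muscles. The log2 change in HSA-LR against WT mice was -0.04 in the gastrocnemius (standard error 0.13, 95% interval -0.33 to 0.26, adjusted P = 0.897, edgeR's quasi-likelihood test) and -0.11 in the quadriceps (standard error 0.13, interval -0.41 to 0.18, adjusted P = 0.636, same test). The change from HSA-LR to treated mice was 0.06 and 0.17 (intervals -0.23 to 0.35 and -0.12 to 0.47). Here and below, CPM are scaled to library totals, while the log2 changes use TMM normalisation factors. Small changes can therefore differ in sign from the mean of the printed CPM. They do so for Mbnl1 in HSA-LR against WT mice in both muscles, and from HSA-LR to treated mice in the gastrocnemius.

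Mbnl2 varied widely between the mice of a group. It had 84.9, 96.7 and 130.4 CPM in WT gastrocnemius, 108.9, 104.3 and 140.4 in HSA-LR and 129.3, 117.5 and 62.9 in treated gastrocnemius. In the quadriceps of the same mice it had 81.0, 102.0 and 125.0 CPM (WT), 105.1, 106.7 and 129.5 (HSA-LR) and 128.1, 135.3 and 89.7 (treated). Mouse 3 was thus the highest of its group in both muscles among WT and among HSA-LR mice, and the lowest in both muscles among treated mice. The log2 change in HSA-LR against WT mice was 0.11 in the gastrocnemius (95% interval -0.43 to 0.65) and 0.04 in the quadriceps (-0.40 to 0.48), and after treatment, relative to HSA-LR mice, -0.05 and 0.19 (adjusted P of 0.932 and 0.560 from edgeR's quasi-likelihood test). Neither Mbnl1 nor Mbnl2 was called at adjusted P under 0.1 in any comparison, nor had an unadjusted P under 0.05, and DESeq2 called neither. Among all genes, 15.5% (gastrocnemius) and 20.3% (quadriceps) were called in HSA-LR against WT mice, 10% and 13.8% in treated against HSA-LR mice, and 1.04% and 1.41% in treated against WT mice.

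**Figure D1:**
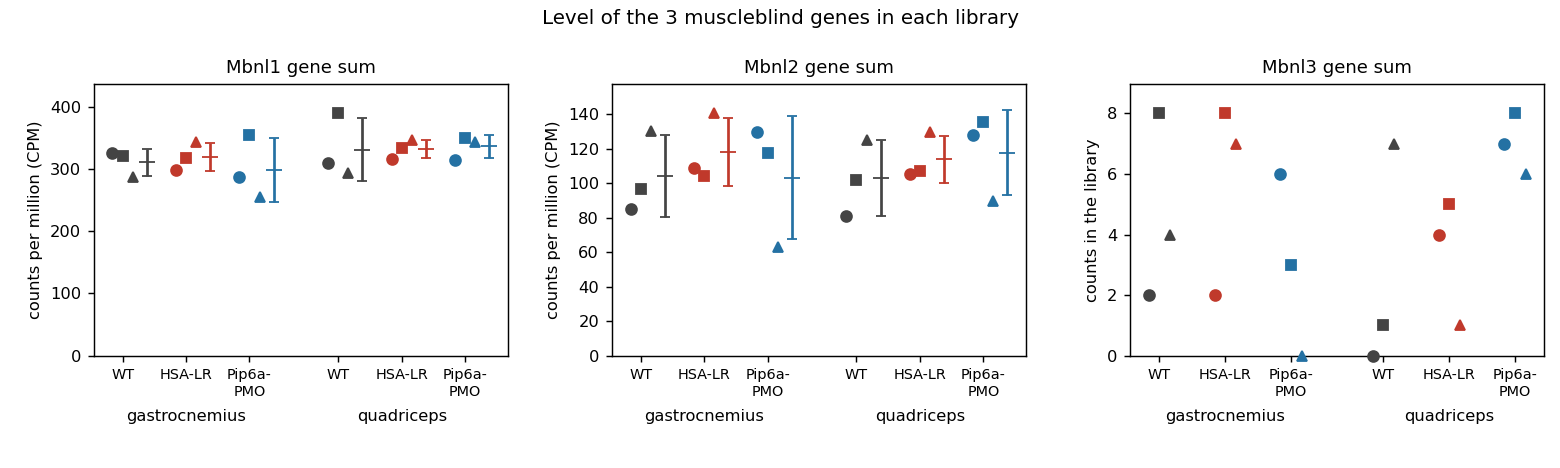
Gene sums of Mbnl1 and Mbnl2 in CPM and of Mbnl3 in counts (y axes, from 0) in each of the 18 libraries, by group and muscle. Circles, squares and triangles are mice 1, 2 and 3 of a group, and bars are the mean ± SD of 3 mice (not drawn for Mbnl3). The groups overlap for Mbnl1 and Mbnl2, and no Mbnl3 value exceeds 8 counts.

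Because reads are counted in every bin they touch, gene sums cannot be compared between genes. The levels were therefore compared over exon 3, a single bin of 201 bases in both Mbnl1 and Mbnl2. Some annotated transcripts of Mbnl1 lack this exon. On this scale Mbnl1 had a median of 44.7 CPM per kilobase (range 20.1 to 64.6 over 18 libraries) and Mbnl2 a median of 32.6 (12.9 to 43.6). The ratio of Mbnl1 to Mbnl2 had a median of 1.31 and ranged from 0.944 (gastrocnemius of WT mouse 3) to 1.90 (quadriceps of WT mouse 2). Mbnl3 had 79 counts in all 18 libraries together, between 0 and 8 per library, over 17 of its 24 bins, and was too low to test. Its 3 whole coding exons that some transcripts lack held 1, 0 and 1 counts. The 2 libraries with 0 counts, the gastrocnemius of treated mouse 3 and the quadriceps of WT mouse 1, allow up to 0.0274 and 0.0263 CPM, by the limit of 3 counts. Counting error alone is covered by this limit.

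The genes whose log2 CPM ran most like that of Mbnl1 over the 18 libraries were Camsap1, Ogt and Cul5 (Pearson r of 0.895, 0.889 and 0.887), and those most like Mbnl2 were Rnf20, Zfp948 and mt-Nd5 (0.903, 0.885 and 0.884), out of 16167 genes. These values describe 18 libraries from 9 mice, in which both muscles of a mouse and the coverage of the library are shared, and carry no test.

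Exon usage changed in both genes. For each bin, the log2 change relative to that of the whole gene was tested (edgeR diffSpliceDGE), called here the relative change. Of the 52 member bins tested in each muscle, 43 of Mbnl1 and 9 of Mbnl2, 8 were called in HSA-LR against WT gastrocnemius (7 used more and 1 less), against 0.819% of all bins, and 6 in the quadriceps (3 more, 3 less), against 0.284%. After treatment, relative to HSA-LR mice, 1 was called in the gastrocnemius (0.309% of all bins) and 5 in the quadriceps (0.168%). Treated against WT mice, 0 were called in either muscle, where 0.0654% and 0.0353% of all bins were. With 1 mouse left out, the count of 8 became 2 (HSA-LR mouse 2 or 3), 3 (any WT mouse), 4 (HSA-LR mouse 1) or 13 (treated mouse 3), the count of 1 became 8 (treated mouse 2) or 3 (treated mouse 3), and the count of 5 became 8 (WT mouse 1). The 16 Mbnl1 bins tested in neither muscle and the 24 of Mbnl3 had too few counts. Neighbouring bins share reads, so counts of bins are not counts of separate events.

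**Figure D2:**
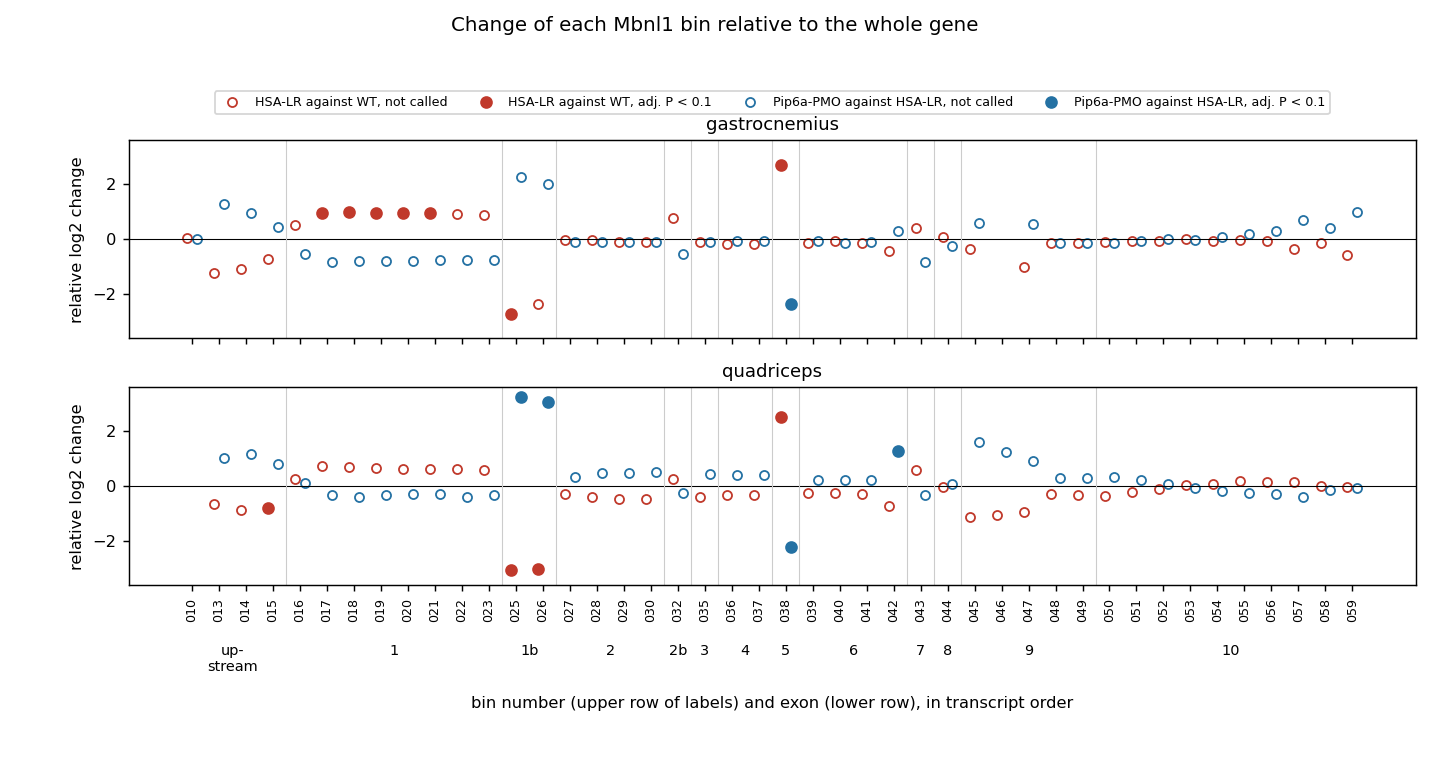
Relative log2 change (y axis) of the 43 tested bins of Mbnl1 in each muscle, in transcript order (x axis: bin number and exon), for HSA-LR against WT (red) and treated against HSA-LR mice (blue). Filled points passed adjusted P under 0.1. Exon 5 (bin 038) was used more in HSA-LR mice and less after treatment, and exon 1b (bins 025 and 026) the other way round.

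Mbnl1 exon 5 (bin 038) was included several fold more in HSA-LR mice. Its counts in the gastrocnemius were 47, 56 and 42 in WT, 215, 336 and 322 in HSA-LR and 51, 92 and 27 in treated mice, and in the quadriceps 34, 71 and 43 in WT, 181, 367 and 295 in HSA-LR and 65, 60 and 67 in treated mice. For a local measure these were set against exon 3 of the same gene. Values on this scale are only described, as an exact permutation test with 3 mice per group cannot give a P under 0.1. Some annotated transcripts of Mbnl1 lack exon 3. As a share of the gene's counts, exon 3 was lower in HSA-LR than in WT gastrocnemius for Mbnl1, and overlapped in the quadriceps. For Mbnl2 it was lower in both muscles. Values and folds on this scale, here and below, include any such change of exon 3. Per 100 counts of exon 3, exon 5 had 4.15, 4.20 and 3.78 counts in WT gastrocnemius, 22.6, 32.8 and 30.8 in HSA-LR and 5.31, 6.38 and 6.11 in treated gastrocnemius. In the quadriceps it had 3.62, 4.63 and 4.07 (WT), 28.2, 33.3 and 32.5 (HSA-LR) and 5.25, 4.50 and 5.09 (treated). Every HSA-LR library was above every WT and every treated library in both muscles, and HSA-LR mouse 1 was the lowest of its group in both. In the gastrocnemius all 3 treated libraries were above all 3 WT libraries, while in the quadriceps they overlapped. The group means, 4.04 ± 0.227, 28.7 ± 5.37 and 5.93 ± 0.556 (SD, n = 3) in the gastrocnemius, differ 7.11-fold between HSA-LR and WT mice, and those of the quadriceps, 4.11 ± 0.508, 31.3 ± 2.74 and 4.95 ± 0.397, 7.63-fold.

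Tested relative to the gene, exon 5 of Mbnl1 rose by 2.71 on the log2 scale in HSA-LR gastrocnemius and by 2.51 in the quadriceps (adjusted P = 1.43e-11 and 5.43e-16, edgeR diffSpliceDGE). From HSA-LR to treated mice it fell by 2.35 and 2.21 (adjusted P = 1.04e-08 and 5.09e-13, same test). These calls held under all 16 alternatives in each muscle, in which the HSA-LR change ranged from 2.60 to 2.86 in the gastrocnemius and from 2.35 to 2.73 in the quadriceps. Over the 18 libraries, the shares of other genes' bins that ran most like that of exon 5 were Nfix bin 018 (Pearson r of 0.980) and Tnnt3 bins 019 and 018 (0.979 each), out of 180522 bins, as a description across libraries that share groups and mice.

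Mbnl2 exon 5 (bin 006), its paralog, moved the same way. It had 27, 36 and 47 counts in WT, 169, 122 and 219 in HSA-LR and 69, 67 and 26 in treated gastrocnemius, and 18, 38 and 36 in WT, 129, 184 and 172 in HSA-LR and 59, 71 and 29 in treated quadriceps. Per 100 counts of Mbnl2 exon 3, the gastrocnemius held 4.22, 4.13 and 3.99 in WT, 21.9, 17.1 and 23.3 in HSA-LR and 7.22, 6.17 and 9.19 in treated mice. The quadriceps held 3.35, 4.71 and 3.98 (WT), 22.2, 23.9 and 21.03 (HSA-LR) and 5.88, 6.89 and 4.15 (treated). All HSA-LR libraries again lay above all others, and the group means differed 5.04-fold and 5.57-fold between HSA-LR and WT mice. In the gastrocnemius all 3 treated libraries lay above all 3 WT libraries on this scale, while in the quadriceps they overlapped. From WT to HSA-LR mice the relative change was 2.21 and 2.27 (adjusted P = 0.00247 and 7.30e-07, edgeR diffSpliceDGE), a call that all 16 alternatives kept in each muscle. Exon 5 of Mbnl2 then fell by 1.72 from HSA-LR to treated quadriceps (adjusted P = 0.000192). In the gastrocnemius the change was -1.54 and missed the threshold (adjusted P = 0.18, unadjusted P of 0.000678, same test). Without treated mouse 3, whose library had the uneven coverage, it was -1.53 with adjusted P = 0.00685, and with coverage as a covariate -1.51 with adjusted P = 0.0108. Of the 16 alternatives, only these 2 made the call.

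Exon 8 of Mbnl2 (bin 008) was also used more in HSA-LR quadriceps. It had, per 100 counts of exon 3, 12.4, 10.3 and 6.03 in WT, 27.2, 25.6 and 24.4 in HSA-LR and 11.5, 11.3 and 15.9 in treated gastrocnemius. The quadriceps had 10.6, 8.69 and 6.53 (WT), 26.1, 24.8 and 23.5 (HSA-LR) and 9.66, 9.99 and 14.02 (treated). HSA-LR libraries lay above all others in both muscles, 2.69-fold and 2.88-fold above WT by group means. WT mouse 3 was the lowest WT library and treated mouse 3 the highest treated library in both muscles. The relative change in HSA-LR against WT mice was 1.40 in the quadriceps (adjusted P = 0.00137, edgeR diffSpliceDGE). In the gastrocnemius it was 1.36 and missed the threshold (adjusted P = 0.113, unadjusted P of 0.000966, same test). It passed without treated mouse 3 (1.36, adjusted P = 0.000612), but only 3 of 16 alternatives made this call. From HSA-LR to treated mice the change was -1.05 and -0.97, with adjusted P of 0.844 and 0.159 from the same test.

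Exon 8 of Mbnl1 (bin 044) was a major exon in every group and was not called. It held 67.5 ± 2.73, 77.7 ± 1.16 and 71.7 ± 4.60 counts per 100 of exon 3 in WT, HSA-LR and treated gastrocnemius, and 65.0 ± 2.39, 84.3 ± 2.96 and 64.8 ± 2.86 in the quadriceps. Its relative change in HSA-LR against WT mice was 0.08 and -0.03, far from the threshold (unadjusted P of 0.769 and 0.897, edgeR diffSpliceDGE), although on the exon 3 scale the HSA-LR libraries lay above the WT libraries. Exon 3 of Mbnl1 itself had a relative change of -0.12 and -0.40 in HSA-LR mice (unadjusted P of 0.650 and 0.0646), which moves values on the exon 3 scale. The difference between the paralogs in exon 8 was not tested.

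**Figure D3:**
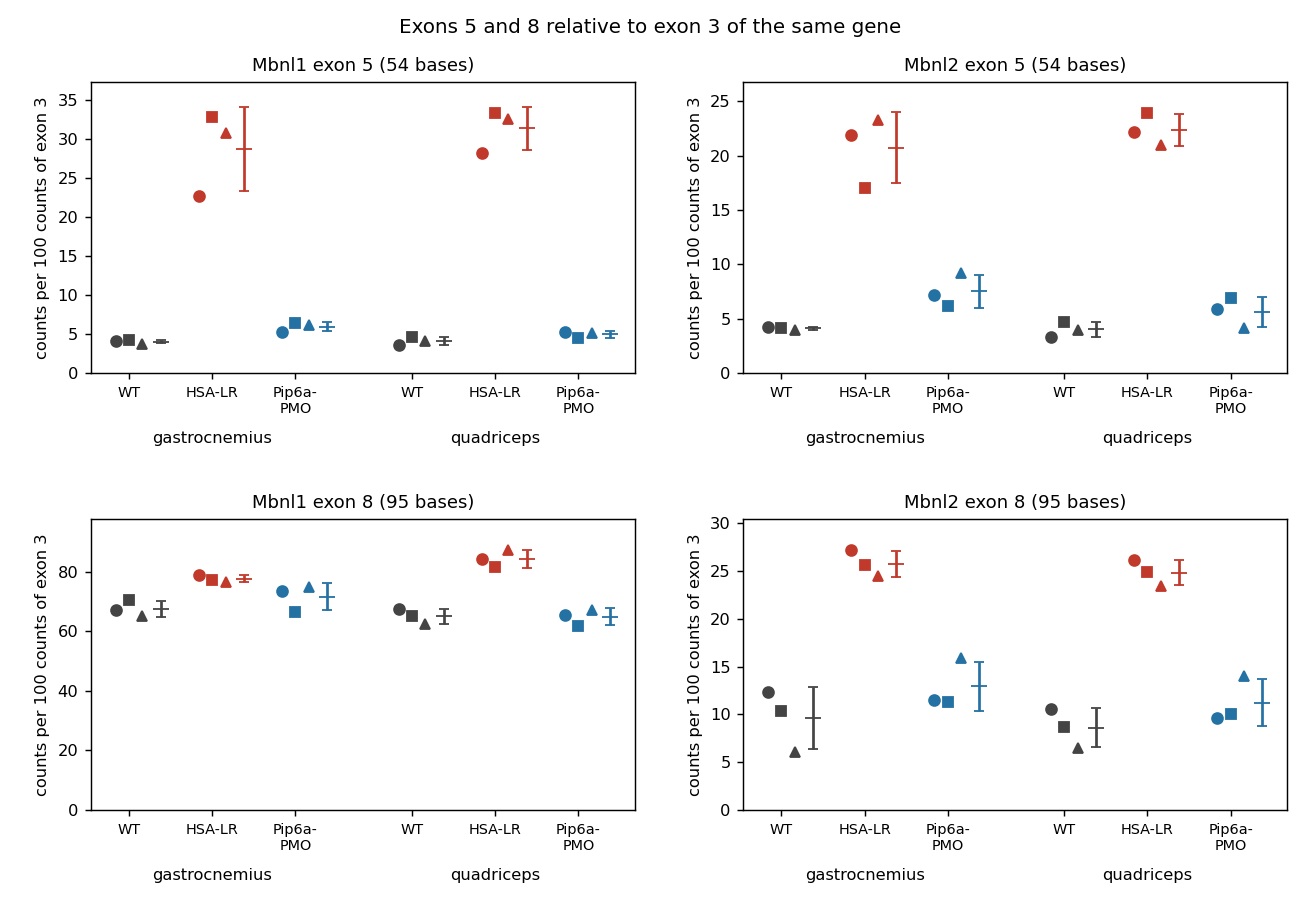
Counts of exon 5 (bins of 54 bases) and exon 8 (95 bases) of Mbnl1 and Mbnl2 per 100 counts of exon 3 of the same gene (y axes, from 0, scaled separately) in each library. Symbols are mice 1 to 3 (circle, square, triangle) and bars the mean ± SD of 3 mice. HSA-LR libraries stand above the rest in every panel, by the smallest fold for exon 8 of Mbnl1. The treated libraries lie between them and WT or overlap WT.

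Outside exon 1, none of the other coding exons that some transcripts lack was called. Exons 2, 3, 4 and 6 of Mbnl1 are among these. Exons 2 to 4 together took 14.6% ± 1.025 of the gene's counts in WT and 13.5% ± 0.328 in HSA-LR gastrocnemius. In the quadriceps they took 15.7% ± 1.70 and 12.2% ± 1.70, and the libraries overlapped in both muscles. Taken singly, the coding bins of exons 2, 3, 4 and 6 were lower in HSA-LR than in WT libraries or overlapped. Exon 7 of Mbnl1 (bin 043, chromosome 3, 60621423 to 60621458, 36 bases), which is known for a part in the association of MBNL1 with itself, took 0.289, 0.249 and 0.232% of the gene's counts in WT, 0.320, 0.352 and 0.351% in HSA-LR and 0.230, 0.186 and 0.151% in treated gastrocnemius. In the quadriceps it took 0.212, 0.244 and 0.212% (WT), 0.243, 0.465 and 0.302% (HSA-LR) and 0.274, 0.290 and 0.249% (treated). Its relative change in HSA-LR mice was 0.41 and 0.58 (unadjusted P of 0.201 and 0.0204, adjusted P near 1 from edgeR diffSpliceDGE), and HSA-LR mouse 2 was the highest of its group in both muscles. Per 100 counts of exon 3, exon 7 lay between 12.4 and 13.5 in HSA-LR gastrocnemius, above WT (8.32 to 10.3) and treated mice (6.10 to 9.50), and between 11.8 and 17.4 in HSA-LR quadriceps, above WT (6.91 to 7.987) and treated mice (7.997 to 9.07). HSA-LR libraries were thus apart from WT and from treated libraries in both muscles on that scale. Treated and WT libraries overlapped in the gastrocnemius. As shares of the gene, HSA-LR and WT libraries overlapped in the quadriceps. Exon 2b (bin 032, 111 bases between exons 2 and 3) was rare, with 0.0496 ± 0.0184% and 0.0843 ± 0.0207% of the gene in WT and HSA-LR gastrocnemius, and its relative change was 0.76 and 0.26 (unadjusted P of 0.118 and 0.524). As shares HSA-LR and WT libraries overlapped in both muscles, and per 100 counts of exon 3 all HSA-LR libraries lay above WT (2.53 to 4.01 against 1.08 to 2.17 in the gastrocnemius, 2.45 to 3.09 against 1.70 in each WT quadriceps). The exon of Mbnl2 with the start codon (bin 002) took 10.8 ± 0.524% and 10.6 ± 0.305% in WT and HSA-LR gastrocnemius, where they overlapped. In the quadriceps the HSA-LR libraries (9.89, 10.99 and 9.82%) lay below those of WT (11.3, 12.4 and 11.2%), with a relative change of -0.19 (unadjusted P of 0.403). Most counts of both genes lay in the last exon: the 11 bins of Mbnl1 exon 10 held 67.1% ± 2.05 of its counts in WT gastrocnemius and 64.5% ± 1.17 in HSA-LR, and the last exon of Mbnl2 held 62.8% ± 1.38 and 62.3% ± 1.26 (SD, n = 3). No bin of either last exon was called in any comparison.

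**Figure D4:**
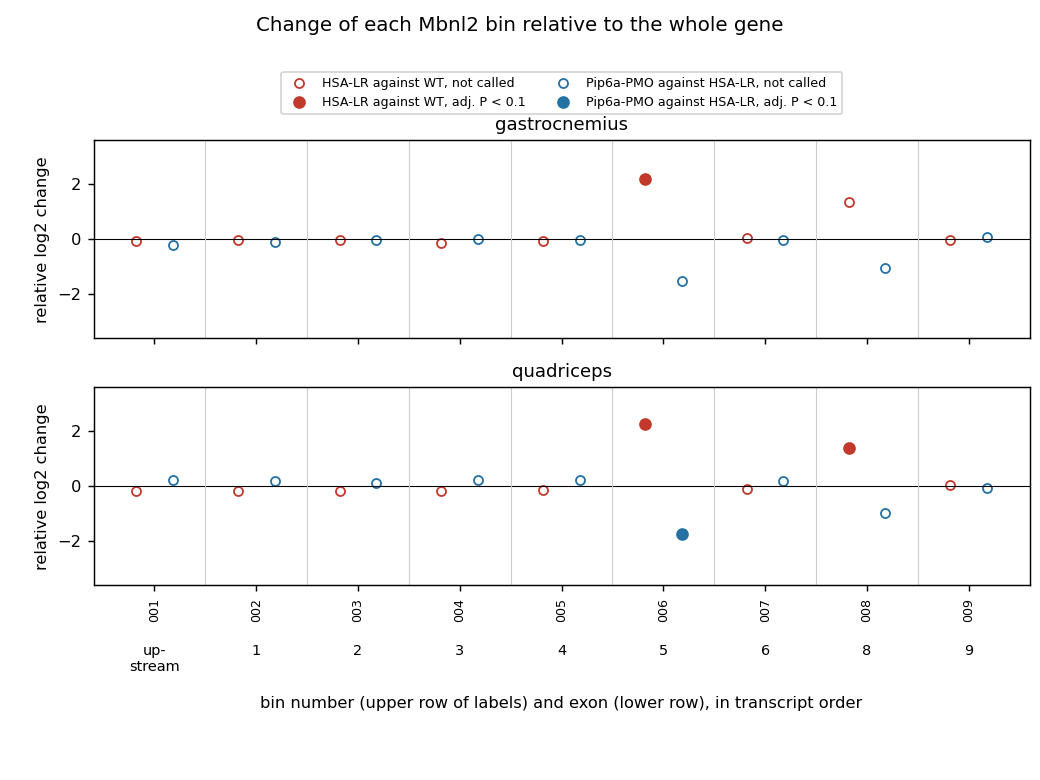
Relative log2 change (y axis) of the 9 bins of Mbnl2 in each muscle, in transcript order (x axis: bin number and exon), for HSA-LR against WT (red) and treated against HSA-LR mice (blue), filled where adjusted P was under 0.1. Exons 5 and 8 stand away from 0 in both muscles and the other 7 bins lie near it.

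The 5′ end of Mbnl1 held most of the other calls. Exon 1, which carries the start codon and is known to be bound by MBNL proteins, was followed over 7 bins (017 to 023, chromosome 3, 60528756 to 60529804). Together they took 4.45% ± 0.446 of the gene's counts in WT, 8.55% ± 0.543 in HSA-LR and 4.86% ± 1.51 in treated gastrocnemius, and 5.11% ± 1.06, 8.11% ± 1.62 and 6.53% ± 1.20 in the quadriceps (SD, n = 3). All HSA-LR libraries were above all WT libraries in both muscles. In the gastrocnemius, treated mouse 3, in the library with low 5′ coverage, had 3.22%, below the WT range (4.04 to 4.92%). Treated mice 1 and 2 had 5.15 and 6.20%, above that range. Relative to exon 3 counts, all treated gastrocnemius libraries lay above all WT and below all HSA-LR libraries in each of the 7 bins. Their group means were between 1.25-fold and 1.33-fold those of WT. In the quadriceps the treated libraries lay above all WT libraries on that scale for bin 017 only, and below all HSA-LR libraries in each of the 7 bins. By share, however, treated and HSA-LR quadriceps overlapped: treated mice 1 and 2 had 7.25 and 7.19%, above HSA-LR mouse 1 at 6.76%. In the gastrocnemius the 5 bins of the leading noncoding stretch (017 to 021) rose by between 0.94 and 0.998 relative to the gene (adjusted P from 0.0482 to 0.0666, edgeR diffSpliceDGE). The last noncoding bin and the bin with the start codon had 0.92 and 0.87 (adjusted P of 0.210 and 0.128). Leaving out any single WT or HSA-LR mouse ended all 5 calls, with adjusted P between 0.155 and 0.509 over those fits, while the change stayed between 0.87 and 1.06. In the quadriceps the same 5 bins had between 0.63 and 0.72 and were not called (adjusted P of 0.231 for bin 017). Bins 017 and 021 had, from HSA-LR to treated mice, -0.83 and -0.76 in the gastrocnemius and -0.32 and -0.27 in the quadriceps, none of them called.

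Exon 1b is the name used here for an exon between exons 1 and 2 (bins 025 and 026, chromosome 3, 60546946 to 60547158). The reference annotation places it in 2 noncoding transcripts, which start in upstream first exons and end in exon 1b. It was used less in HSA-LR mice. Bin 025 had 32, 37 and 33 counts in WT, 8, 3 and 3 in HSA-LR and 16, 44 and 8 in treated gastrocnemius. The quadriceps had 24, 56 and 33 counts (WT), 3, 8 and 2 (HSA-LR) and 28, 56 and 51 (treated). No HSA-LR library reached the lowest WT library in either muscle, and treated libraries overlapped WT in both. Summed over 3 mice, WT gastrocnemius had 102 counts and HSA-LR 14 (exact 95% Poisson intervals 83.2 to 124 and 7.65 to 23.5, for counting error only), and the quadriceps 113 and 13 (93.1 to 136 and 6.92 to 22.2). The relative change of bin 025 was -2.71 in the gastrocnemius (adjusted P = 0.00521) and -3.07 in the quadriceps (adjusted P = 5.50e-07, edgeR diffSpliceDGE). In the gastrocnemius the call was lost without HSA-LR mouse 2 or mouse 3 (adjusted P = 0.152 and 0.131). Bin 025 was higher in treated than in HSA-LR mice, by 3.24 in the quadriceps (adjusted P = 7.80e-08, same test). Its change in the gastrocnemius, 2.26, missed the threshold (adjusted P = 0.159). It passed without treated mouse 3 (2.52, adjusted P = 0.00825), but only 2 of 14 alternatives made this call. The 22 bases of bin 026 gave -3.03 and 3.07 in these comparisons of the quadriceps (adjusted P = 0.000380 and 0.000355), calls that limma voom did not make (adjusted P = 0.268 and 0.363), and the second was also lost with coverage as a covariate.

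The upstream first exon (bin 015, chromosome 3, 60501278 to 60501423, noncoding) also took a smaller share in HSA-LR mice. It held 0.730, 0.850 and 0.788% of the gene's counts in WT, 0.542, 0.424 and 0.467% in HSA-LR and 0.717, 0.767 and 0.430% in treated gastrocnemius, and 0.866, 0.800 and 0.809% (WT), 0.460, 0.523 and 0.438% (HSA-LR) and 0.923, 0.816 and 0.761% (treated) in the quadriceps. Treated mouse 3 was in the HSA-LR range in the gastrocnemius, in the library with low 5′ coverage, and at 0.761% in the quadriceps. Per 100 counts of exon 3 the same gastrocnemius library had 27.15, within the WT range (26.04 to 29.1) and above HSA-LR (16.2 to 21.05). The relative change of bin 015 was -0.73 in the gastrocnemius (adjusted P = 0.478) and -0.80 in the quadriceps (adjusted P = 0.0880, edgeR diffSpliceDGE), a call that 12 of 15 alternatives lost. One further call lay in intron sequence: bin 042, a retained stretch of 3274 bases after exon 6, took 0.124, 0.274 and 0.189% of the gene in WT, 0.0830, 0.210 and 0.0754% in HSA-LR and 0.335, 0.347 and 0.229% in treated quadriceps. In treated mice it was above HSA-LR by 1.29 (adjusted P = 0.00493), but by 0.29 with coverage as a covariate (adjusted P near 1), and the call was lost on leaving out HSA-LR mouse 1 or 3 or treated mouse 1 or 2.

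**Figure D5:**
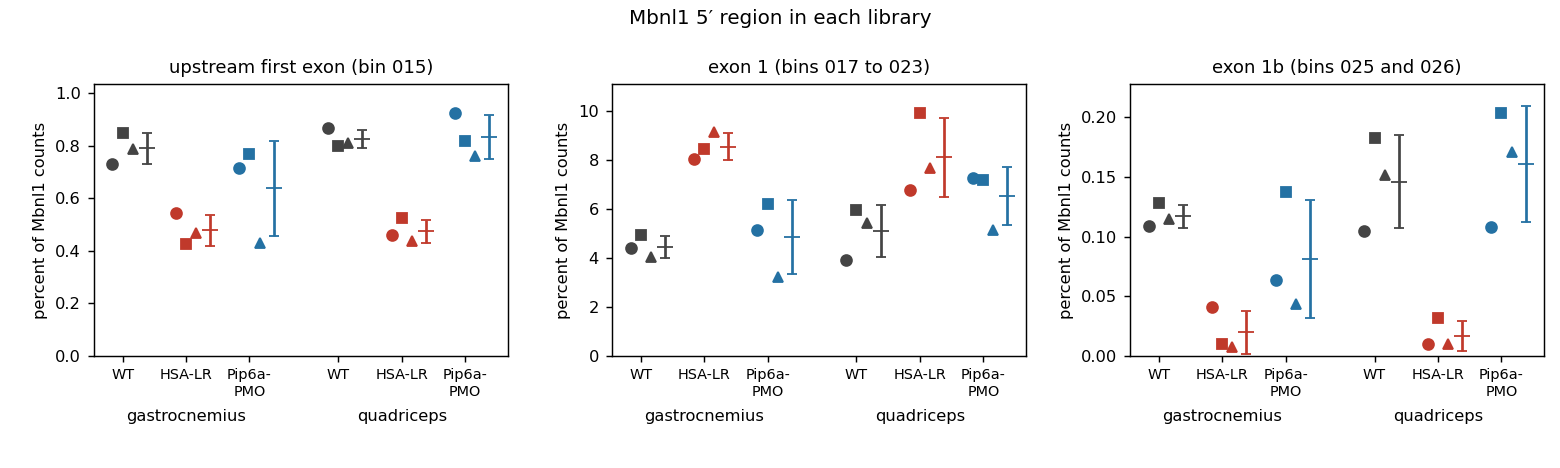
Percent of Mbnl1 counts (y axes, from 0, scaled separately) in the upstream first exon, exon 1 and exon 1b in each library. Symbols are mice 1 to 3 (circle, square, triangle) and bars the mean ± SD of 3 mice. In HSA-LR mice exon 1 (8.55% in the gastrocnemius against 4.45% in WT) lies above the WT range and the other 2 regions below it.

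Treated and WT mice were set side by side over all bins. Of the 52 member bins, 0 were called by edgeR diffSpliceDGE in either muscle, with 0 at an unadjusted P under 0.05 in the gastrocnemius and 1 in the quadriceps, bin 042 of Mbnl1 (unadjusted P of 0.0312), and limma voom called 0. The relative change of exon 5 against WT was 0.36 and 0.29 in Mbnl1 (unadjusted P of 0.305 and 0.268) and 0.67 and 0.54 in Mbnl2 (unadjusted P of 0.164 and 0.0890), and that of Mbnl2 exon 8 was 0.31 and 0.43 (unadjusted P of 0.446 and 0.115). Each was above 0. Treated mice serve in this comparison and in that with HSA-LR mice, so these values are not independent of the falls given above. The missing calls do not show that treated and WT mice were alike.

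Between the 2 muscles no difference was called in the family. In WT mice, quadriceps against gastrocnemius, the log2 change was 0.11 for Mbnl1 (95% interval -0.18 to 0.39) and -0.0006 for Mbnl2 (-0.50 to 0.50), and neither gene was called, while 0.297% of all genes were. Of the 53 member bins tested, 0 were called (0.0432% of all bins) and 0 had an unadjusted P under 0.05, by edgeR diffSpliceDGE. The difference of the HSA-LR change between the muscles was -0.09 for Mbnl1 (-0.49 to 0.31) and -0.09 for Mbnl2 (-0.79 to 0.62), and 0% of all genes were called. Of the member bins, 0 were called for this difference (0.0166% of all bins), with 0 at an unadjusted P under 0.05. For the difference of the change from HSA-LR to treated mice, 0 were called (0.0155% of all bins) and 2 had an unadjusted P under 0.05, bins 042 and 057 of Mbnl1. For treated against WT mice, 0 were called (0.00831% of all bins) and 0 had an unadjusted P under 0.05. Limma voom and a fit with the mouse as a block also called 0 in each.

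A pair of lists of related genes were counted for context. Among 15 tested of 18 RNA-binding proteins that act with or against MBNL proteins, 4 were called in HSA-LR against WT gastrocnemius (2 higher, 2 lower) and 6 in the quadriceps (4 higher, 2 lower), where 15.5% and 20.3% of all genes were. Their median log2 change was 0.13 and 0.06, against -0.01 and 0.01 over all genes. In the gastrocnemius Celf4, a neuronal member of the CELF family that opposes MBNL1 on several exons, rose by 2.39 (standard error 0.34). Its adjusted P was 0.00291 (edgeR's quasi-likelihood test). Too few of its bins passed the count filter for a bin test, and its level is not given here. Hnrnpa1, a splicing repressor, rose by 0.39 (adjusted P = 0.0760, same test). Celf2 fell by 0.68 and Rbfox1, a muscle and neuronal splicing factor, by 0.42 (adjusted P = 0.0203 and 0.0258). From HSA-LR to treated mice, 1 was called in the gastrocnemius (lower) and 2 in the quadriceps (1 higher, 1 lower), shares no larger than the 10% and 13.8% of all genes.

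Among 18 genes with exons known to depend on MBNL proteins in muscle, 17 had tested bins, and 14 of them had at least 1 called bin in HSA-LR against WT gastrocnemius, where 4.93% of all genes did. In the quadriceps it was 11 of 17 (2.33% of all genes), and treated against HSA-LR mice 12 of 17 in each muscle (2.88% and 1.79%). Treated against WT mice, 1 of 17 had a called bin in the gastrocnemius and 3 of 17 in the quadriceps (0.354% and 0.251%). In the gastrocnemius the top bin of Clcn1, the muscle chloride channel, rose by 3.43 relative to its gene and that of Pdlim3, a Z-disc protein, by 2.03, while those of Atp2a1, the fast calcium pump, and Trim55, a sarcomeric ubiquitin ligase, fell by 2.20 and 1.27. The list was drawn up with the exon changes of this mouse model known, so its counts are not independent evidence. As whole genes, 5 of 17 were called in HSA-LR gastrocnemius (2 higher, 3 lower) and 8 in the quadriceps (3 higher, 5 lower), where 15.5% and 20.3% of all genes were. Their median log2 changes were 0.02 and 0.0048, against -0.01 and 0.01 over all genes.

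Some cell type markers moved with the same groups. The 4 satellite cell and myoblast markers summed to between 22.2 and 31.1 CPM in HSA-LR gastrocnemius, above the 11.9 to 16.4 of WT, and to between 23.9 and 32.2 in the quadriceps, above the 9.32 to 17.2 of WT. None of the 4 was at 0 in any group. In treated mice they summed to between 17.8 and 22.3 CPM (gastrocnemius) and between 20.5 and 24.2 (quadriceps), both above the WT ranges. Of the 9 marker lists, HSA-LR libraries lay apart from WT for 5 in the gastrocnemius and 6 in the quadriceps. How often lists of other genes lay apart was not computed. By the test of single genes, an unlike measure, 15.5% and 20.3% of all genes were called between the same groups. The fast muscle and Schwann cell lists were lower in both muscles, adipocyte and erythroid lists were lower in the gastrocnemius, the endothelial list was lower in the quadriceps, and the macrophage and fibroblast lists were higher in the quadriceps. The slow fiber list overlapped in both. The fibroblast list rested on only 2 genes, as the others planned for it were not found by symbol. The part of these cells in the exon changes was not tested.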

How the data were processed

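PolyA RNA of 2 muscles from 9 mice was sequenced by the authors with a stranded kit, and the deposited values are raw counts of reads per exon bin, 1 table per library, with no normalisation. The submitters' processing notes name CASAVA, HISAT, featureCounts 1.5.0 and GRCm38, while the annotation version was not given in the sources used here. All 41211 genes that shared an identifier version with GENCODE M21 had the same number of bins there, and exon names and sequences were taken from it. The Mbnl2 identifier had another version, and its 9 bins matched the 9 exons of 1 transcript, so exon 7 of Mbnl2, which has 36 bases, had no bin. A bin of 1 base held 2652 counts, which shows that a read was counted in every bin it overlapped, so gene sums count some reads more than once. Between 2.815% and 4.139% of counts belonged to no gene and were left out.

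Gene sums were tested with edgeR 4.0.16 (R 4.3.3) by its quasi-likelihood test, and bins with edgeR diffSpliceDGE, which compares the log2 change of a bin with that of its gene. Both were fitted over the whole table, on the 9 libraries of a muscle or, between muscles, on all 18, with TMM factors, filterByExpr (minimum count 10, minimum total 15) and at least 2 bins per gene. Benjamini-Hochberg adjusted P under 0.1, the study's threshold, was a call. Scripts were tested on simulated data. Alternatives were a fit without each mouse in turn, a block for the replicate number, upper-quartile factors, no filter, only the 2 groups compared, each library's 5′ to 3′ coverage ratio as a covariate, DESeq2 1.42.0 (genes), the largest bin in place of the sum (genes), limma 3.58.1 voom (bins) and, chosen after seeing the data, coding bins only. Depth was 98916844 to 143135976 counts per library.

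The replicate numbers name different mice in each group. Deviations of same-numbered mice in 2 groups had a median correlation of 0.0013 (range -0.23 to 0.25, 5 of 18 over 0.1), so the numbers do not pair the groups, while the 2 muscles of a mouse are paired by design (median 0.215, 7 of 9 over 0.1). Named were all 3 genes, each called bin, coding exons that some transcripts lack, the 3 genes or bins most like a member by Pearson r, and genes of the lists as examples. Members and lists were chosen with earlier results of these data known.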

Additional observations from a re-analysis of the deposited data

How the results depend on the processing

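Under the alternatives that kept all mice, 193 values of single bins kept their side of the threshold, 12 gained a call and 10 lost one. With a mouse left out, 250 kept it, 10 gained and 46 lost a call. None of these turned. The number of member bins called in HSA-LR against WT gastrocnemius was 8, and became 13 with coverage as a covariate, 14 with only the 2 groups compared, 5 with limma voom and 2 with coding bins only. Leaving out a mouse gave 2 to 13. It was 13 when treated mouse 3 was left out, 4 for HSA-LR mouse 1, 2 for HSA-LR mice 2 and 3, and 3 for each WT mouse. In HSA-LR against WT quadriceps it went from 6 to 3 with coding bins only. From HSA-LR to treated gastrocnemius it went from 1 to 3 with the covariate, and leaving out a mouse gave 1 to 8 (8 without treated mouse 2, 3 without treated mouse 3). In the quadriceps it went from 5 to 3 with the covariate, 8 with only the 2 groups and 2 with coding bins only, and leaving out a mouse gave 4 to 8 (8 without WT mouse 1). With coding bins only, noncoding bins are not in the fit. Otherwise the cause was not tested.

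With the replicate block, 8, 6, 1, 7, 0 and 0 member bins were called in HSA-LR against WT, treated against HSA-LR and treated against WT mice, gastrocnemius before quadriceps. As the replicate numbers do not pair the groups, this is no paired test.

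Neither gene passed the threshold under any alternative, so a turned sign is one of a value near 0. With the largest bin of each gene, Mbnl1 had 0.10 in HSA-LR against WT quadriceps, -0.071 from HSA-LR to treated quadriceps and -0.030 between WT muscles, and the differences between muscles were 0.13 (HSA-LR against WT), -0.23 (treated against HSA-LR) and -0.10 (treated against WT). With the coverage covariate, Mbnl2 had 0.22 from HSA-LR to treated gastrocnemius and Mbnl1 -0.13 in treated against WT quadriceps. Leaving out a mouse, Mbnl1 ranged from -0.11 to 0.0099 (HSA-LR against WT, gastrocnemius), -0.20 to 0.037 (same, quadriceps), -0.087 to 0.13 (treated against HSA-LR, gastrocnemius), -0.12 to 0.10 (treated against WT, gastrocnemius) and -0.023 to 0.21 (same, quadriceps). Mbnl2 ranged from -0.058 to 0.29 (HSA-LR against WT, gastrocnemius), -0.13 to 0.195 (same, quadriceps), -0.19 to 0.18 (treated against HSA-LR, gastrocnemius) and -0.092 to 0.30 (treated against WT, gastrocnemius). Few counts limit what can be said of Mbnl3 and of the rarest bins.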
